A study of Homo sapiens with 28 samples.

Results

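The genes described here are 59 genes of the mitotic spindle, the kinetochore and the G2/M transition. They were the rows of the deposited gene-level count table whose symbol was on a list of 59 names, and all 59 were found among 61815 human genes. The list was set by name and not by a measured value, but it was chosen with earlier results of these data known. The counts came from 28 RNA-seq libraries of LNCaP, a human prostate cancer cell line that expresses the androgen receptor and is labelled wild type. All cells were kept for 72 hours in medium with charcoal-stripped serum, which holds little androgen, before treatment. Every group was thus androgen-deprived before treatment, and only the groups with R1881 were then given an androgen. In the 24 h experiment the groups were vehicle (0.1% DMSO), 1 µM Senexin B, 0.1 nM R1881, and R1881 with Senexin B, with n = 3 libraries each. In the 72 h experiment they were vehicle (0.1% DMSO), 500 nM SNX631, 1 nM R1881, and R1881 with SNX631, with n = 4 libraries each. R1881 (methyltrienolone) is a metabolically stable androgen receptor agonist. Both Senexin B and SNX631 inhibit the Mediator kinases, CDK8 and its paralog CDK19, which act on RNA polymerase II transcription. Time, R1881 dose and inhibitor all differ between the experiments, so their parts in a difference between 24 h and 72 h cannot be told apart. The doses are those of the labels. The text of the study gives another Senexin B dose for LNCaP cells.

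Cells that prepare for mitosis accumulate a set of transcripts in G2 whose products build the spindle, attach chromosomes to it and drive their separation. Cyclin B and CDK1 start mitosis, the Aurora and Polo kinases assemble the spindle, kinetochores built on CENPA chromatin bind microtubules through the NDC80 complex, and the checkpoint kinases restrain CDC20 and the anaphase-promoting complex until every kinetochore is attached. These transcripts are low in resting cells because the DREAM complex represses their promoters, and they are raised in dividing cells by the MuvB core with MYBL2 and FOXM1. The DREAM and MuvB complexes contact a short element called CHR, and the trimeric factor NF-Y contacts CCAAT boxes nearby. LNCaP cells depend on androgen for their growth.

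The promoters of these genes are shown first because the letters they share were not used to choose them. RefSeq promoters (GRCh38.p14, 250 bases before to 50 bases after the annotated start) were matched by symbol for 51 of the 59 genes. FOXM1, AURKA, TTK, UBE2C, CENPM, KNL1, TPX2 and BIRC5 had no entry. A CHR element, TTTGAA or TTCGAA on either strand, was in 38 of the 51 promoters (74.5%) and in 16.4% of all 35114 promoters of that length. CCAAT, again on either strand, was in 36 (70.6%) against 34.6% of all promoters. Both were in 27 (52.9%) against 6.38%. These shares are not particular to the 59. In 36 promoters of other periodic mitotic genes a CHR was in 26 (72.2%), CCAAT in 26 (72.2%) and both in 24 (66.7%). An E2F-like element (TTTGGCGC or TTTCCCGC, either strand), typical of genes of DNA replication, was in 3 of the 51 (5.88%) against 2.27% of all promoters, and in 13 of 19 promoters (68.4%) of a list of replication genes. Those 19 held CCAAT in 14 (73.7%) and a CHR in 2 (10.5%). None of these motifs contains another, TTCGAA is its own reverse complement and was counted once, and a match in the letters is a description and not a binding site.

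The 120 bases before the RefSeq start are printed for 7 genes, 5′ to 3′ on the gene's strand, with CHR and CCAAT matches in capitals. CCNB2, PLK1 and CDC20 are examples of a CCAAT box upstream of a CHR, and CDC20 has a further CCAAT box downstream of its CHR. Not every gene has this arrangement, and the windows of CCNB1 and AURKB, which are not printed, hold no CHR. NCAPG had the highest fold change with R1881 at 24 h, CENPN the highest at 72 h and KIF18A the lowest at 72 h, and CDK1 had the highest fold change with the inhibitors in 3 of 4 comparisons. The windows lie at chr15:59105026-59105145, plus strand (CCNB2), chr16:23678769-23678888, plus strand (PLK1), chr1:43358861-43358980, plus strand (CDC20), chr4:17810859-17810978, plus strand (NCAPG), chr16:81007094-81007213, plus strand (CENPN), chr11:28108157-28108276, minus strand (KIF18A) and chr10:60778211-60778330, plus strand (CDK1).
CCNB2: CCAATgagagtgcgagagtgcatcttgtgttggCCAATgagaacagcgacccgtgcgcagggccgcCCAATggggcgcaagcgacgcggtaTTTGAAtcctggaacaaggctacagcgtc
PLK1: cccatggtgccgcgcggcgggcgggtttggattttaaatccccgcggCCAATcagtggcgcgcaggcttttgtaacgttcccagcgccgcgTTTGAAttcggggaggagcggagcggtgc
CDC20: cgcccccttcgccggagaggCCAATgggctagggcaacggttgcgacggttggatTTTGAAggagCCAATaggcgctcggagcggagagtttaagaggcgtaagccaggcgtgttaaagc
NCAPG: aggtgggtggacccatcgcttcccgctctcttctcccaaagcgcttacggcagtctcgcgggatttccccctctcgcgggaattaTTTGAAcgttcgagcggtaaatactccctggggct
CENPN: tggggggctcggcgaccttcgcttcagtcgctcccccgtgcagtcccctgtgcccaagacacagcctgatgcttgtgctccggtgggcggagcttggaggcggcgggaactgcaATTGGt
KIF18A: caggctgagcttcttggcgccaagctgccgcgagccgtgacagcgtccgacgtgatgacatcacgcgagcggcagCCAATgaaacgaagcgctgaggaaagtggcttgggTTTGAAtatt
CDK1: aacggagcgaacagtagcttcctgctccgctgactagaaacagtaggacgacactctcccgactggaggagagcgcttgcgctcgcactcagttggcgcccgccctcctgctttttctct

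In CCNB2 the window holds 3 CCAAT boxes and a CHR that begins 29 bases before the start, and PLK1 holds its CHR at the same distance. NCAPG has a CHR and no CCAAT. CENPN has a CCAAT match on the opposite strand, in which CCAAT reads ATTGG, and its CHR match begins 4 bases after the start, outside the window. KIF18A has both. CDK1 has neither in these 120 bases, and its matches begin 161 (CHR) and 150 (CCAAT) bases before the start. The median R1881 effect at 24 h was 2.43 on the log2 scale over the 38 genes with a CHR and 2.52 over the 13 without, and at 72 h the medians were 1.49 and 1.46.

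The libraries held 9846595 to 15248512 counts, apart from vehicle 24 h replicate 3 with 33809419. The deposited values are featureCounts estimates, and 16.9% of those above 0 were not whole, as when a read shared between genes is split. They were rounded before testing. Levels are given as CPM, the counts of a gene scaled to a fixed library size after TMM scaling over all 28 libraries. The lowest count of any of the 59 genes in any library was 8, and all 59 passed the filter on low counts in both experiments. Luminal markers summed to 3599 to 6373 CPM in every library. The basal marker KRT5 and the T-cell marker CD3E were at 0 in all 28 libraries, and the basal and leukocyte lists summed to at most 0.446 and 1.40 CPM. The neuroendocrine list summed to 18.4 to 45.7 CPM, nearly all of it ENO2, and the stromal list to 8.22 to 32.7 CPM, nearly all of it COL1A1. A change called here passed an adjusted p under 0.01 and a fold change over 1.5, in edgeR's quasi-likelihood test with Benjamini-Hochberg adjustment over all genes tested. Log2 fold changes are given ± SE. The labels do not say whether replicate libraries came from separate cultures on separate days, so the p-values measure the spread between these libraries.

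The summed level of the 59 genes was 468 to 514 CPM in the 24 h vehicle libraries, 625 to 654 with Senexin B, 1937 to 2071 with R1881 and 2119 to 2347 with both. At 72 h it was 1098 to 1192 in vehicle, 2093 to 2257 with SNX631, 2982 to 3142 with R1881 and 4279.7 to 4644 with both. The 4 ranges do not overlap within either experiment, and the libraries of each agent alone lay above those of vehicle. Without CDK1, the most abundant of the 59, the 24 h ranges with R1881 (1762 to 1879 CPM) and with both (1836 to 2035 CPM) overlap, and the other neighbouring groups stay apart. The sum was not tested. The mean vehicle level was higher in the 72 h experiment for 59 of the 59 genes, and so was the mean level with R1881 alone. The same count over all genes was not made, so the 59 cannot be set against a general difference between the experiments. RNA from bulk cultures does not tell more cells in G2 or mitosis apart from more of these transcripts per cell.

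**Figure D1:**
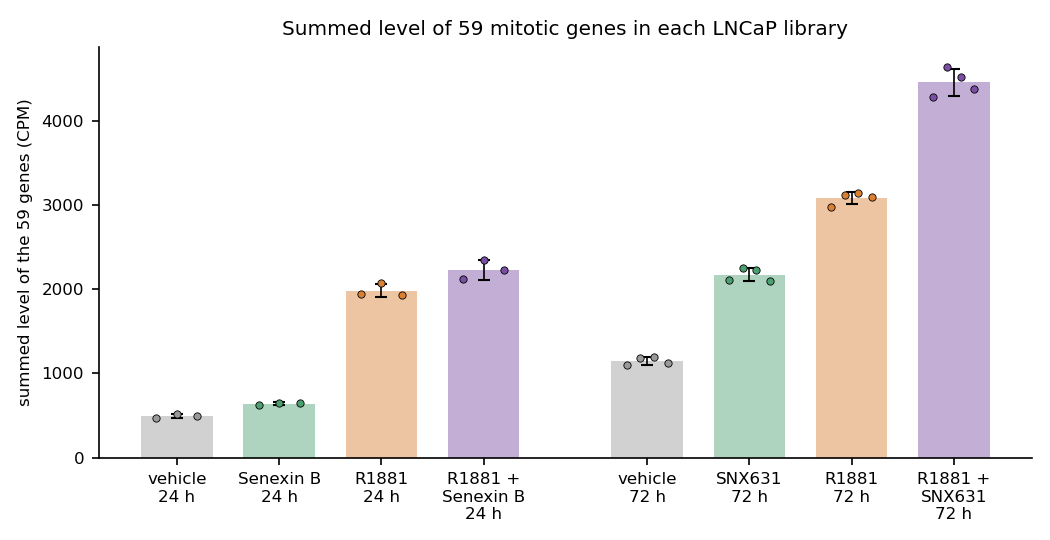
Summed level of the 59 mitotic genes (vertical axis, CPM) in each of 28 LNCaP libraries (points) of 8 groups (horizontal axis). Bars are group means with the SD over 3 (24 h) or 4 (72 h) libraries, and within each experiment the order is vehicle, inhibitor alone, R1881 alone, both, with no overlap between neighbouring groups. Without CDK1 the R1881 group and the group with both overlap at 24 h.

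R1881 raised all 59 genes at 24 h. The fold changes were called higher for 59 of 59, against 9.81% of the 15948 genes tested (9.19% were called lower). The median log2 fold change over the 59 was 2.38, a 5.22-fold rise, beside -0.016 over all genes tested. In 59 of the 59 every R1881 library lay above every vehicle library, which was so of 31.7% of the genes tested. The range ran from 0.76 for NCAPD2, a condensin subunit, to 3.58 for NCAPG, a subunit of condensin I. Among the roles, the outer kinetochore genes had the highest median (2.89, 7 genes), and the condensin and topoisomerase genes the lowest (1.95, 6 genes). The difference between roles was not tested.

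Among the kinases and cyclins that start mitosis, CCNB1, the regulatory partner of CDK1, was at 25.9, 29.1 and 29 CPM in the 24 h vehicle libraries and at 71.0, 74.7 and 64.5 CPM with R1881. It rose by 1.30 ± 0.06 on the log2 scale (2.47-fold; edgeR adjusted p = 1.6e-19), the smallest rise of the 7 genes of this role. PLK1, which drives centrosome maturation and mitotic entry, went from 4.55, 4.85 and 4.16 CPM to 20.9, 19.3 and 18.2 CPM, a log2 change of 2.14 ± 0.11. In both genes the R1881 libraries lay above all vehicle libraries. AURKA, the kinase of the spindle poles, went from 6.16, 7.27 and 5.88 CPM to 20.3, 23.8 and 21.5 CPM (1.79 ± 0.09). CCNA2, the cyclin of S phase and G2, changed most in this role, by 2.63 ± 0.12. FOXM1, the transcription factor that binds with MuvB at many of these promoters, went from 19.9, 21.4 and 21.8 CPM to 55.9, 58.8 and 59.4 CPM (1.44 ± 0.06 on the log2 scale). MKI67, the proliferation marker that coats mitotic chromosomes, went from 8.34, 8.27 and 9.87 CPM to 72.7, 59.9 and 74.6 CPM (2.91 ± 0.08). In none of these genes did the R1881 and vehicle libraries overlap.

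The checkpoint and exit genes all rose. BUB1, a checkpoint kinase at the kinetochore, went from 4.55, 4.70 and 4.30 CPM to 22.0, 21.5 and 20.1 CPM (2.25 ± 0.10), and TTK, the kinase that recruits the other checkpoint proteins, changed by 3.10 ± 0.16. CDC20, the activator of the anaphase-promoting complex, went from 3.41, 6.2 and 6.2 CPM to 31.1, 35.3 and 33.4 CPM (2.55 ± 0.11), and its ubiquitin-conjugating partner UBE2C from 3.32, 3.35 and 2.96 CPM to 18.8, 20.3 and 16.3 CPM (2.56 ± 0.13). These genes set the timing of anaphase, and their R1881 libraries all lay above vehicle. At the centromere, CENPA, the histone H3 variant that marks it, was at 1.90, 2.42 and 2.35 CPM in vehicle and 5.38, 5.71 and 5.6 CPM with R1881 (1.28 ± 0.15). CENPN, which reads the CENPA nucleosome, changed by 3.21 ± 0.06. In the outer kinetochore, NDC80, which binds the microtubule, went from 2.27, 2.64 and 3.39 CPM to 24.0, 28.4 and 22.0 CPM (3.04 ± 0.12), SPC25, of the same complex, changed by 3.39 ± 0.23 from 1.42, 0.784 and 0.459 CPM in vehicle, and KNL1, the checkpoint scaffold, by 2.26 ± 0.12. All of these were called higher and had no overlap between the groups.

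Of the motors and midzone proteins, KIF11, the kinesin that pushes spindle poles apart, went from 4.83, 7.34 and 5.63 CPM to 24.4, 25 and 24.5 CPM (2.06 ± 0.10), and KIFC1, a minus-end motor that clusters poles, changed by 2.83 ± 0.10. TPX2, which activates AURKA on the spindle, went from 13.7, 13.9 and 12.4 CPM to 60.2, 67.5 and 62.5 CPM (2.28 ± 0.07), and PRC1, which bundles midzone microtubules, from 6.54, 7.41 and 6.63 CPM to 27.3, 28.4 and 27.5 CPM (2.02 ± 0.09). None of these motors and spindle factors overlapped between vehicle and R1881. ECT2, the exchange factor that sets the cleavage furrow, changed by 0.77 ± 0.07, the second lowest of the 59. In the chromosomal passenger complex AURKB, its kinase, went from 0.853, 1.21 and 1.84 CPM to 8.16, 9.47 and 9.36 CPM (2.58 ± 0.18), while INCENP, its scaffold, changed by 1.00 ± 0.07. Among genes of cohesion, PTTG1 (securin, the inhibitor of separase) went from 5.59, 4.85 and 4.82 CPM to 11.4, 11.8 and 11.5 CPM (1.21 ± 0.12). CDCA5 (sororin, which protects cohesin) went from 3.98, 6.13 and 5.31 CPM to 37.0, 39.5 and 34.1 CPM (2.8 ± 0.10), and SGO1 (shugoshin, the protector of centromeric cohesion) changed by 3.02 ± 0.19. Again the libraries of the 2 groups did not overlap. TOP2A, which untangles chromatids, went from 9.10, 10.9 and 10.2 CPM to 75.1, 81.1 and 74.9 CPM (2.92 ± 0.08). The condensin ATPases SMC2 and SMC4, which other processes also use, changed by 1.17 and 1.29.

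The remaining genes rose as well at 24 h. CCNB2, a second mitotic cyclin, changed by 2.16 on the log2 scale, CDC25C by 2.31, the checkpoint genes BUB1B and MAD2L1 by 2.31 and 2.21, and the passenger complex genes BIRC5 (survivin) and CDCA8 (borealin) by 2.38 and 2.29. The kinetochore motor CENPE changed by 1.98, CENPF by 1.99, and the inner kinetochore proteins CENPI, CENPK and CENPM by 2.97, 2.66 and 2.19. In the outer kinetochore NUF2, SPC24, SKA1 and SKA3 changed by 2.73, 2.52, 2.89 and 2.94. Of the kinesins, KIF2C, which depolymerizes microtubules, changed by 2.45, KIF4A by 2.64, KIF14 by 2.65, KIF15 by 2.79 and KIF18A by 1.27. The cytokinesis genes ANLN, CEP55, KIF20A and KIF23 changed by 3.10, 2.90, 2.77 and 2.25, and the spindle factor HMMR by 2.54. ESPL1 (separase) changed by 2.27, SGO2 by 1.33 and the condensin subunit NCAPH by 2.62. The SE of these values was between 0.07 (CENPF) and 0.23 (SKA1).

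At 72 h with the higher R1881 dose, 58 of the 59 genes were called higher, against 9.7% of the 16074 genes tested (10.1% lower), and the median log2 fold change was 1.48 beside -0.014 over all genes tested. Over all genes the calls were 1559 higher and 1625 lower, and with library totals in place of TMM scaling 1301 and 2115, which left the count of 58 as it was. KIF18A, a kinesin that damps chromosome movement at plus ends, was the exception, with a log2 change of 0.52 ± 0.12 (edgeR adjusted p = 1.8e-04) that did not reach the fold limit. Every R1881 library lay above every vehicle library in 58 of the 59 genes, against 29.4% of the genes tested. CENPN stood apart at the top (3.08), followed by KIF20A (2.09), the kinesin of the central spindle, and SKA1 (2.03), which tracks microtubule ends at the kinetochore. CCNB1 went from 51.6, 54.8, 52.6 and 46.8 CPM to 105, 104, 109 and 109 CPM (1.05 ± 0.04), and TOP2A from 48.1, 51.6, 51.6 and 44.2 CPM to 136, 149, 146 and 146 CPM (1.56 ± 0.05). PLK1 changed by 1.52 ± 0.07, AURKB by 1.44 ± 0.10 and NDC80 by 1.68 ± 0.07. The R1881 effects at 24 h and 72 h, from experiments with no library in common, had a Pearson r of 0.785 and a Spearman rho of 0.794 across the 59 genes, which is a correlation across genes that are not independent of one another.

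The R1881 effect was smaller at 72 h than at 24 h in most of these genes. In a fit of all 28 libraries the difference of the effects was called lower for 43 of 59 and higher for 0, against 1.31% and 0.57% of the 16672 genes tested, and its median was -0.85 on the log2 scale. The largest differences were in NCAPG (-1.68 ± 0.15), SKA3 (-1.60 ± 0.18), a SKA complex subunit, and SGO1 (-1.59 ± 0.23). Without vehicle replicate 3 of the 24 h experiment, the deepest library, the count called lower fell from 43 to 34. Among the 38 genes refitted singly, KIF20A (-0.64), SPC25 (-0.85), UBE2C (-0.74) and PLK1 lost their calls there, with edgeR adjusted p up to 0.091. PLK1 was also lost without R1881 24 h replicate 1 or vehicle 72 h replicate 2 or 3. All 4 checkpoint genes and 6 of the 7 outer kinetochore genes were among the 43. The 16 without a call included CENPN (-0.13 ± 0.08), CENPA (0.05 ± 0.22), PTTG1 (-0.16 ± 0.13), NCAPD2 (0.07 ± 0.06) and INCENP (0.09 ± 0.10, the highest). KIF18A was also without a call at -0.74 ± 0.22 (edgeR adjusted p = 0.019). Levels were higher at 72 h in both groups. For TOP2A the vehicle mean was 10.1 CPM at 24 h and 48.9 at 72 h, and the R1881 mean 77.0 and 144 CPM. For CENPN the vehicle means were 14.5 and 19.1 CPM. With a test against a fold change of 1.5 at an adjusted p under 0.05, 13 of the 59 differences were called. The share of all genes in that test is not given.

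**Figure D2:**
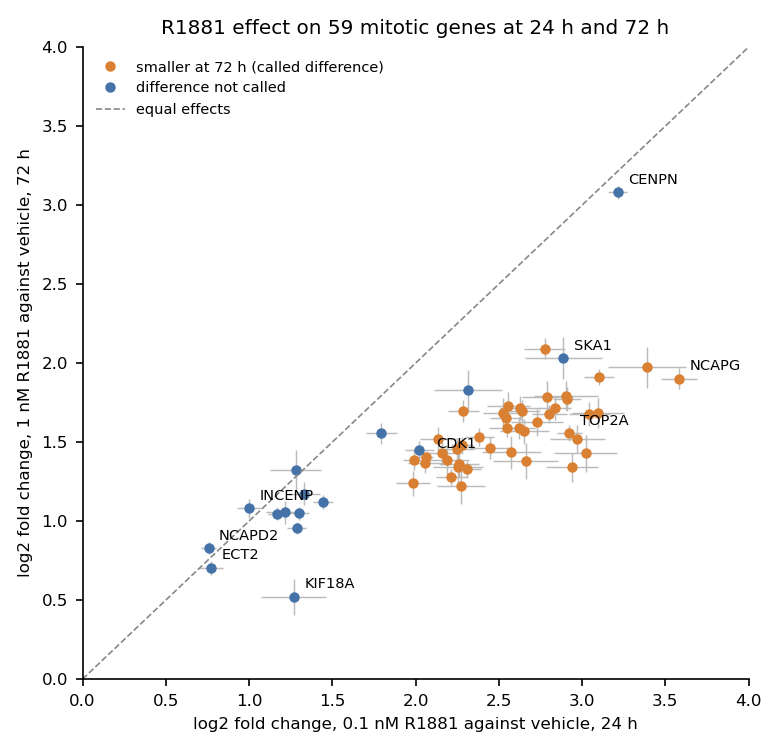
Log2 fold change of each of the 59 genes (points, bars are SE) with 0.1 nM R1881 at 24 h (horizontal axis) and with 1 nM R1881 at 72 h (vertical axis). Orange marks the 43 genes whose effect was called smaller at 72 h, and CENPN lies near the dashed line of equal effects at 3.21 and 3.08 while NCAPG lies far below it at 3.58 and 1.90.

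Senexin B alone raised some of these genes at 24 h, and none was called lower. 10 of 59 were called higher, against 2.02% of the genes tested (1.77% lower), and 19 passed the adjusted p without the fold limit, against 13.5%. The median log2 change was 0.40 beside 0.00047 over all genes tested, and 32 genes had every Senexin B library above every vehicle library, against 23.7%. The 10 were CDK1, CENPF and NUF2 of the kinetochore, SKA3, KIF2C, KIFC1, CDCA5, TOP2A, NCAPG and NCAPH. NUF2 lost its call with library totals and in 8 of the 12 fits that left out 1 library of the experiment, with edgeR adjusted p up to 0.041, and SKA3 lost its call in 3 of the 12 (without replicate 2 or 3 of vehicle or replicate 3 of Senexin B), with adjusted p up to 0.016. CDK1 led at 0.94 ± 0.05. NCAPG went from 3.51, 3.49 and 3.36 CPM to 5.66, 8.41 and 4.78 CPM (0.86 ± 0.16), and TOP2A from 9.10, 10.9 and 10.2 CPM to 16.8, 15.8 and 18.0 CPM (0.73 ± 0.10). CCNB1 was at 36.9, 37.0 and 36.0 CPM, above every vehicle library, and its change of 0.37 ± 0.06 (edgeR adjusted p = 1.8e-05) was under the fold limit. AURKA (0.16 ± 0.12), KIF11 (0.12 ± 0.13), TPX2 (0.20 ± 0.09) and CENPN (0.01 ± 0.09) were not called. KNL1 and CDC25C, the phosphatase that activates CDK1, were the lowest at -0.02 ± 0.17 and -0.05 ± 0.29.

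By role, the Senexin B calls fell on 3 of 6 condensin and topoisomerase genes, 2 of 7 outer kinetochore genes, 2 of 7 kinesins, and 1 each of the kinases and cyclins, the centromere proteins and the cohesion genes. None of the checkpoint, CDC20 and UBE2C, spindle assembly, midzone and passenger complex genes was called, although BUB1B and BIRC5 passed the adjusted p and fell short of the fold limit, at 0.54 ± 0.10 and 0.51 ± 0.11. SPC25, at 1.42, 0.784 and 0.459 CPM in vehicle, changed by 0.74 ± 0.35 and was not called (edgeR adjusted p = 0.10).

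SNX631 alone raised nearly all of the genes at 72 h. The call was higher for 53 of 59 and lower for 0, against 2.82% and 1.94% of the genes tested, with a median of 0.98 (1.97-fold) beside 0.002 over all genes. All 59 passed the adjusted p without the fold limit, against 14.4% of the genes tested, and in 59 of 59 every SNX631 library was above every vehicle library, against 18%. The 6 that missed the fold limit were CENPN (0.32 ± 0.06), SMC4 (0.49 ± 0.04), NCAPD2 (0.50 ± 0.04), KIF18A (0.54 ± 0.11), INCENP (0.56 ± 0.06) and ECT2 (0.58 ± 0.04). The largest changes were in SKA1 (1.43 ± 0.14) and CDK1 (1.36 ± 0.03). MKI67 went from 30.4, 31.2, 33.7 and 34.5 CPM to 64.2, 68.8, 72.0 and 61.3 CPM (1.04 ± 0.08), and TOP2A from 48.1, 51.6, 51.6 and 44.2 CPM to 103, 113, 116 and 100.4 CPM (1.14 ± 0.05). CCNB1 was at 82.1, 88.0, 78.5 and 81.4 CPM against 51.6, 54.8, 52.6 and 46.8 CPM in vehicle (0.68 ± 0.04), and FOXM1 at 72.8, 74.8, 77.3 and 72.1 CPM against 43.1, 44.1, 46.0 and 42.5 CPM (0.76 ± 0.04). PLK1 changed by 0.99 ± 0.08, AURKA by 0.81 ± 0.07 and PTTG1 by 0.66 ± 0.08.

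For MKI67, TOP2A, CCNB1 and FOXM1 every SNX631 library lay below every R1881 library of the same time, so their levels with the inhibitor alone lay between those of vehicle and of R1881. CDK1 was at 249.7, 263, 257 and 248 CPM with SNX631 and 277, 266, 259.7 and 253 CPM with R1881, and those ranges overlap. Senexin B and SNX631 were used at other doses and for other times, so their values stand side by side only. The Senexin B effect at 24 h and the SNX631 effect at 72 h had a Pearson r of 0.605 and a Spearman rho of 0.595 across the 59 genes, with no library in common.

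**Figure D3:**
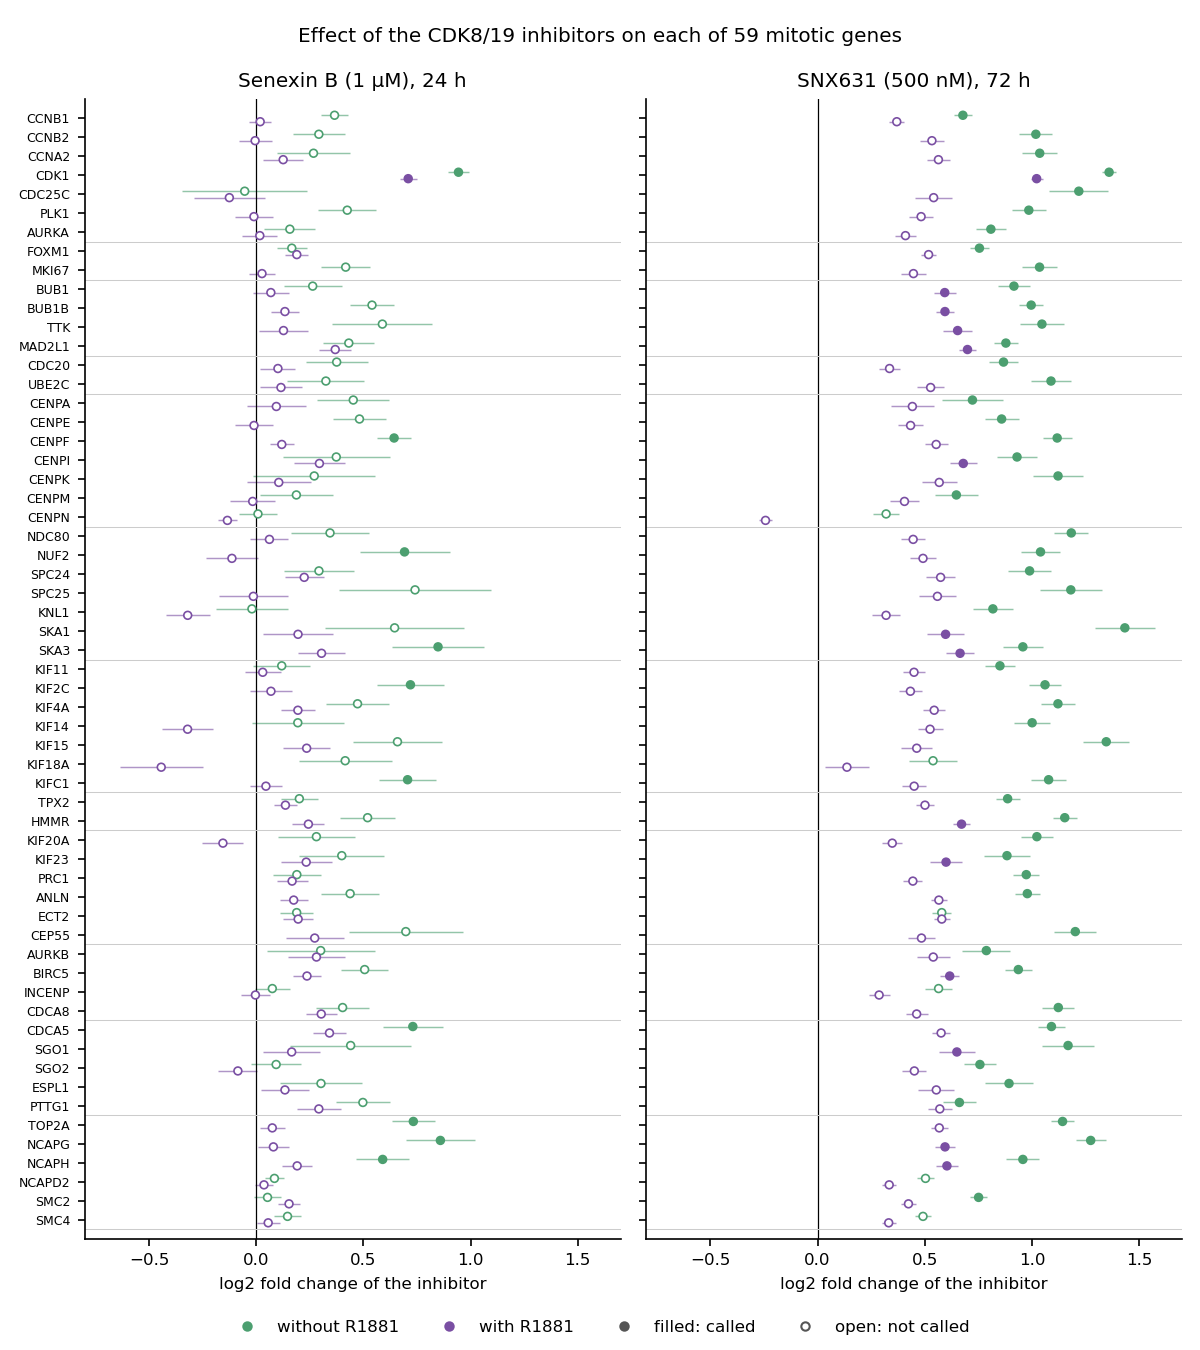
Log2 fold change of each of the 59 genes with Senexin B at 24 h (left) and SNX631 at 72 h (right), without R1881 (green) and with R1881 (purple), with SE as bars. Filled points were called, lines separate the roles, and the points with R1881 lie mostly to the left of those without, with CDK1 filled in all 4 series and CENPN below 0 with R1881.

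The log2 effect of the inhibitor was smaller with R1881 than without it in 56 of the 59 genes at 24 h and in 58 at 72 h. That is the sign of the interaction term given below and not a separate result. Over all genes tested the median of that term was 0.0011 at 24 h and -0.0067 at 72 h. With R1881 at 24 h, Senexin B gave 1 call of 59, CDK1 at 0.71 ± 0.04, and 0 lower, against 1.61% and 1.51% of the genes tested. The adjusted p alone was passed by 6 (background 12.7%), the median was 0.12, and 16 genes had no overlap in the higher direction (background 22.8%). KIF18A was the lowest at -0.44 ± 0.19 (edgeR adjusted p = 0.077), followed by KIF14 (-0.32 ± 0.12), a kinesin of cytokinesis, and MAD2L1, a checkpoint protein, was the highest after CDK1 (0.37 ± 0.07). CCNB1, at 71.0, 74.7 and 64.5 CPM with R1881 and 72.0, 72.6 and 68.8 CPM with both, changed by 0.02 ± 0.05, and TOP2A, at 75.1, 81.1 and 74.9 CPM with R1881 and 73.3, 90.6 and 80.6 CPM with both, by 0.07 ± 0.06. The ranges of both genes overlap between the groups.

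With R1881 at 72 h, SNX631 gave 14 calls higher and 0 lower, against 1.89% and 2.24%. The adjusted p alone was passed higher by 57 of 59 (background 17.8%), the median was 0.53, and 57 genes had no overlap in the higher direction (background 21.2%). All 4 checkpoint genes were called, BUB1, BUB1B, TTK and MAD2L1, with log2 changes from 0.59 to 0.70. The other 10 were CDK1, CENPI, SKA1, SKA3, HMMR, KIF23, BIRC5, SGO1, NCAPG and NCAPH. CDK1 led at 1.02 ± 0.03. Many lay close to the fold limit, just inside with BUB1 at 0.59 ± 0.05 and just outside with ECT2 at 0.58 ± 0.04. TOP2A went from 136, 149, 146 and 146 CPM to 206, 234, 218 and 204 CPM (0.57 ± 0.04), PLK1 from 36.4, 36.0, 41.9 and 38.5 CPM to 53.5, 55.8, 55.7 and 50.3 CPM (0.48 ± 0.06), and CCNB1 from 105, 104, 109 and 109 CPM to 139, 143, 139.8 and 136 CPM (0.37 ± 0.04), all without overlap. CENPN was the one gene lower at the adjusted p limit (-0.24 ± 0.03; edgeR adjusted p = 3.5e-08). With library totals in place of TMM scaling the count of 14 fell to 7, and BUB1, NCAPG and SKA1 were each lost there and in 2 of the 16 fits that left out 1 library (R1881 replicate 4 or both replicate 3 for BUB1, R1881 replicate 1 or both replicate 2 for NCAPG, R1881 replicate 1 or 2 for SKA1).

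From the other side, R1881 raised the genes in the presence of the inhibitors as well. The call was higher for 58 of 59 with Senexin B, against 9.97% (8.9% lower), with a median of 2.15, and 59 of 59 had no overlap (background 32.6%). It was higher for 58 of 59 with SNX631, against 10.1% (12% lower), with a median of 1.06, and 58 had no overlap (background 31.3%). In the latter the calls over all genes were 1619 higher and 1924 lower, and with library totals 1313 and 2431, with 57 of the 59 higher and NCAPD2 not called. KIF18A was the gene without a call in each, at 0.41 ± 0.21 (edgeR adjusted p = 0.10) and 0.12 ± 0.10 (edgeR adjusted p = 0.30), and CENPN was the highest in each, at 3.07 and 2.52.

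The interaction term, which asks whether the combined effect differs from the sum of the single effects on the log2 scale, was mostly negative. At 24 h its median was -0.27 over the 59 genes and 56 values were negative. It was called lower for 3 and higher for 0, against 0.332% and 0.245% of the genes tested, and 5 passed the adjusted p alone (background 1.02%). The 3 were NCAPG (-0.78 ± 0.18), KIFC1 (-0.66 ± 0.15) and TOP2A (-0.66 ± 0.11). For KIFC1 the libraries held 2.75, 3.42 and 3.10 CPM in vehicle, 4.84, 5.55 and 4.93 with Senexin B, 22.2, 22.8 and 22.0 with R1881 and 22.8, 23.4 and 23 with both, so the Senexin B libraries lay above vehicle while the libraries with both agents overlapped those with R1881 alone. KIF18A (-0.86 ± 0.29) and NUF2 (-0.81 ± 0.24) had the lowest values and were not called (edgeR adjusted p = 0.095 and 0.050), and SMC2 had the highest (0.10 ± 0.08). The count of 3 fell to 1 when vehicle replicate 1, vehicle replicate 3, Senexin B replicate 2, or replicate 1 or 3 of the combination was left out. NCAPG lost its call in each of those fits and without vehicle replicate 2, with values of -0.80 to -0.55 and edgeR adjusted p up to 0.075. TOP2A kept its call in every fit that left out 1 library. KIFC1 was not refitted singly, but a count of 1 means that it was not called in those fits either.

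At 72 h the median interaction was -0.42, 58 of 59 values were negative, and 11 were called lower and 0 higher, against 0.821% and 0.373%. Without the fold limit 39 were lower (background 4.1%). The 11 were KIF15 (-0.88 ± 0.13), SKA1 (-0.84 ± 0.17), NDC80 (-0.74 ± 0.10), CEP55 (-0.72 ± 0.12), NCAPG (-0.68 ± 0.09), CDC25C (-0.68 ± 0.17), KIF20A (-0.67 ± 0.09), CDCA8 (-0.66 ± 0.09), KIF2C (-0.63 ± 0.09), KIFC1 (-0.63 ± 0.10) and MKI67 (-0.59 ± 0.10). NDC80 was at 10.5, 12.9, 11.5 and 11.2 CPM in vehicle, 27.0, 27.2, 27.3 and 23.7 with SNX631, 39.3, 35.4, 37.3 and 36.7 with R1881 and 50.5, 57.0, 49.5 and 46.8 with both. SKA1 was at 2.06, 2.03, 2.78 and 2.46 CPM in vehicle, 5.78, 7.22, 7.11 and 5.02 with SNX631, 9.01, 9.25, 10.2 and 9.77 with R1881 and 14.5, 14.9, 14.6 and 14.4 with both. In both genes the 4 groups do not overlap and the combination is the highest, while the ratio of both to R1881 is smaller than that of SNX631 to vehicle. ECT2 had an interaction of 0.00013 ± 0.08, with SNX631 effects of 0.58 without and 0.58 with R1881. The count of 11 rose to 17 without replicate 2 of the combination and fell to 8 without replicate 2 of SNX631. KIF2C, KIFC1, CEP55 and CDCA8 were not refitted singly, and some of them were among those lost in the latter fit. MKI67 lay at the fold limit and lost its call in 12 of 22 alternatives with the thresholds kept, DESeq2 among them, at values of -0.58 to -0.50. CDC25C lost its call without replicate 1, 3 or 4 of vehicle, replicate 3 of SNX631 or replicate 3 of R1881, with edgeR adjusted p up to 0.022.

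The counts of 0 above, for genes called lower with an agent or higher in an interaction or in the difference between experiments, were also 0 by DESeq2. At an unadjusted p under 0.05 in edgeR, 0 of 59 were lower with R1881 or an inhibitor alone or with R1881 in the presence of an inhibitor, while with R1881 present Senexin B had 4 lower and SNX631 had 1. None of the 59 was higher at that p in either interaction or in the difference between 72 h and 24 h. The share of all genes at that p is not given.

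**Figure D4:**
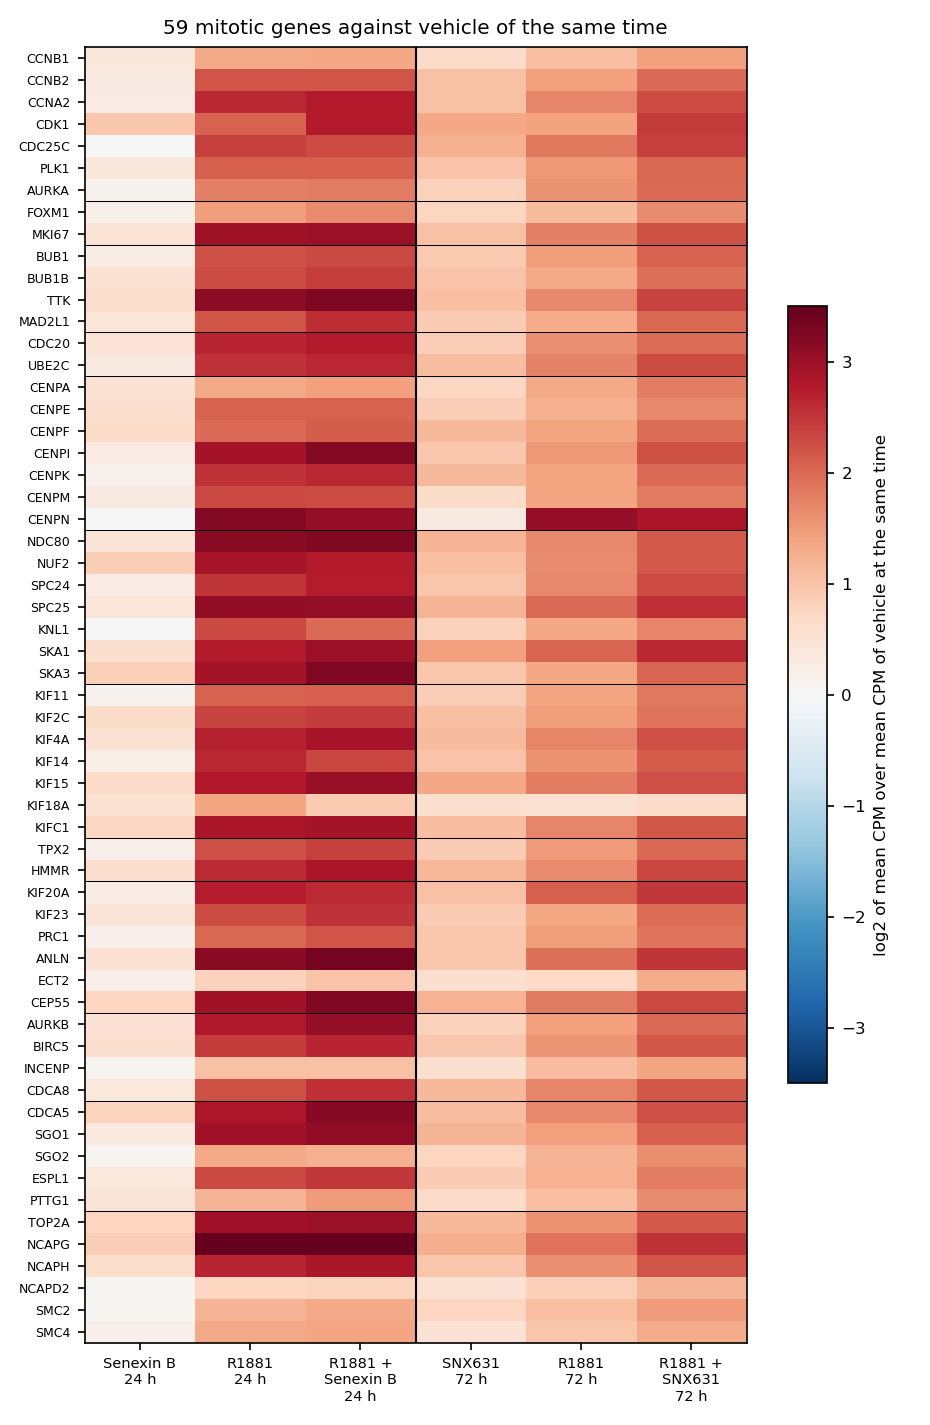
Log2 of the mean CPM of each treated group over the mean CPM of vehicle of the same time (colour), for the 59 genes ordered by role (rows, lines between roles) and the 6 treated groups (columns). R1881 columns are red throughout, the SNX631 column is red for nearly all genes, the Senexin B column is pale apart from genes such as CDK1 and NCAPG, and ECT2 and NCAPD2 are among the palest genes in the R1881 columns.

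CDK1, the kinase that cyclin B activates (chromosome 10, 60778331 to 60794852, plus strand, GRCh38, GENCODE 29), had the largest inhibitor effects of the 59 genes in 3 of 4 comparisons and was the only one of the 59 called in all 4. Outside the 59, the periodic mitotic genes H2AZ1 and OIP5, named after their values were seen, were also called higher in all 4. At 24 h its libraries held 43.4, 46.2 and 42.4 CPM in vehicle and 81.5, 85.1 and 86.2 CPM with Senexin B. With R1881 they held 181, 192 and 175 CPM alone and 283, 312 and 302 CPM with Senexin B. These 4 groups do not overlap, and Senexin B raised CDK1 by 1.92-fold without and 1.63-fold with R1881 (edgeR adjusted p = 1.2e-15 and 2.8e-15). At 72 h they held 95.6, 101, 98.8 and 100.1 CPM in vehicle and 249.7, 263, 257 and 248 CPM with SNX631. With R1881 at 72 h they held 277, 266, 259.7 and 253 CPM alone and 512, 543, 539.6 and 562 CPM with SNX631, and the fold changes of SNX631 were 2.57 and 2.03. CDK1 was also the most abundant of the 59 per length, at 58.6 CPM per kilobase of exon averaged over the 28 libraries, beside 29.9 for CCNB1 and 1.22 for KIF18A. At 72 h the summed level of the other 58 genes had means of 1051 CPM in vehicle, 1919.7 with SNX631, 2822 with R1881 and 3918 with both, in ranges that do not overlap.

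CENPN (chromosome 16, 81006498 to 81033114, plus strand) changed much with R1881 and little with the inhibitors. At 24 h it was at 14.4, 14.9 and 14.1 CPM in vehicle and 15, 16 and 12.5 CPM with Senexin B, which overlap, and at 134, 138 and 129 CPM with R1881 and 129.7, 118 and 118 CPM with both. At 72 h it was at 19.4, 18.6, 19.9 and 18.3 CPM in vehicle and 22.9, 25.2, 23.3 and 23.7 CPM with SNX631. With R1881 at 72 h it was at 171, 156, 159.8 and 160.3 CPM alone and 134, 141, 134 and 141 CPM with SNX631, where it was lower. Its R1881 effect was 9.27-fold at 24 h and 8.45-fold at 72 h, and the difference between them was -0.13 ± 0.08 on the log2 scale (edgeR adjusted p = 0.34). Exons of CMC2, looked up after the values of CENPN were seen, overlap CENPN on the opposite strand, and the library kit keeps strand but the strand setting of the counting is not given in the sources used here. CMC2 rose by 1.37 ± 0.08 with R1881 at 24 h and by 1.26 ± 0.07 at 72 h (edgeR, log2), and with SNX631 on top of R1881 it changed by 0.20 ± 0.05 while CENPN changed by -0.24 ± 0.03. What part of either count belongs to the other gene was not tested.

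NCAPG (chromosome 4, 17810902 to 17844862, plus strand) had the largest R1881 effect of the 59 at 24 h. Its libraries were at 3.51, 3.49 and 3.36 CPM in vehicle and 40.2, 43.3 and 39.9 CPM with R1881, a 12.0-fold rise. With both agents they were at 39.8, 46.9 and 44.2 CPM, which overlaps R1881 alone. At 72 h vehicle was at 11.8, 16.1, 16.9 and 14.6 CPM, SNX631 at 35.4, 36.4, 36.5 and 35.8, R1881 at 50.6, 57.7, 56.6 and 57.6 and both at 82.8, 88.6, 86.2 and 82.0 CPM, with no overlap. NCAPD2, the partner of NCAPG in condensin I, went from 64.1, 63.1 and 60.5 CPM to 103, 109 and 103 CPM at 24 h (1.69-fold). KIF18A (chromosome 11, 28020620 to 28108308, minus strand) was at 1.14, 1.64 and 1.78 CPM in vehicle and 4.27, 4.20 and 3.32 CPM with R1881 at 24 h. At 72 h it was at 4.89, 6.91, 5.99 and 5.53 CPM in vehicle, 8.63, 8.14, 9.09 and 8.29 with SNX631, 6.74, 7.69, 9.37 and 9.77 with R1881 and 9.12, 9.68, 9.75 and 8.83 with both, and the R1881 and vehicle ranges overlap.

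**Figure D5:**
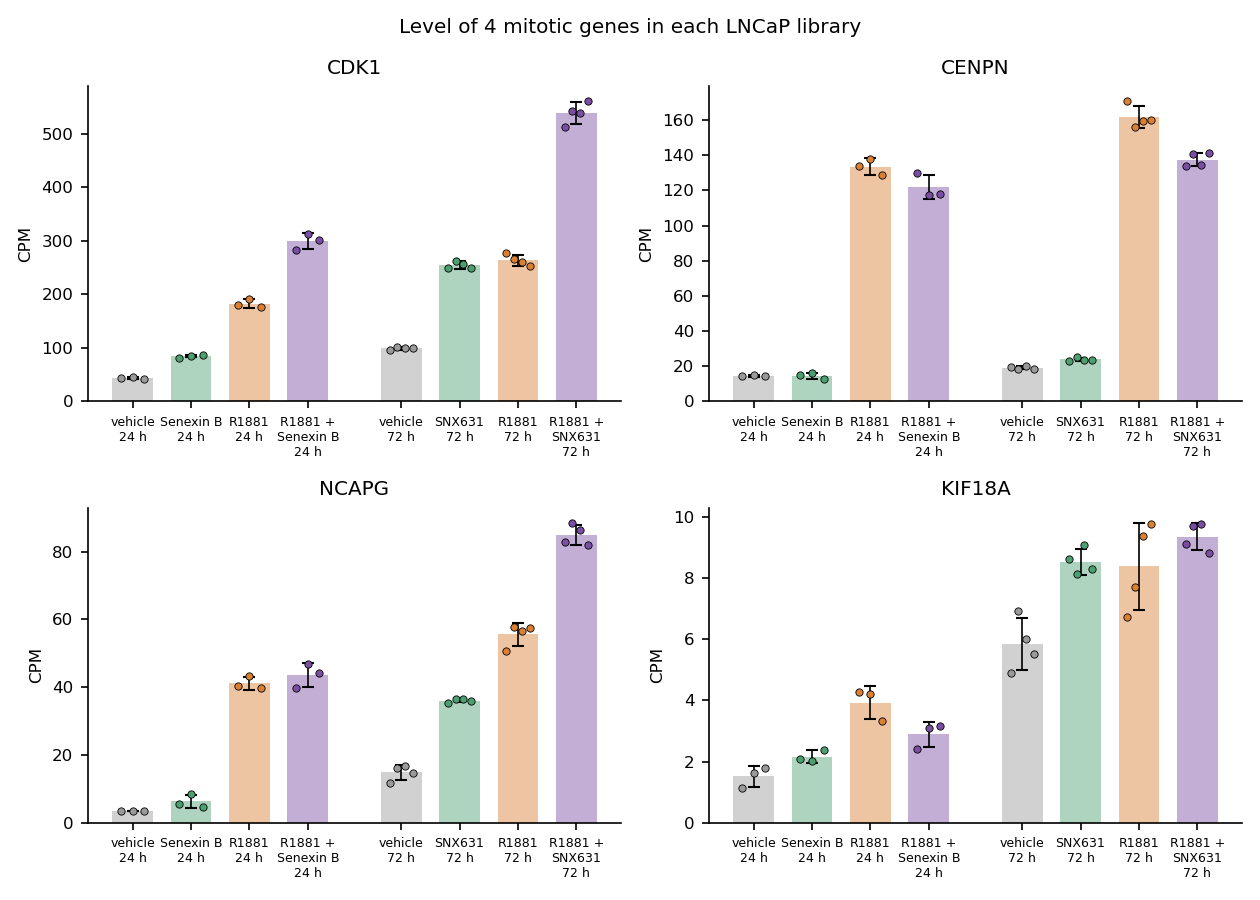
Level (vertical axis, CPM, each panel with its own scale from 0) of CDK1, CENPN, NCAPG and KIF18A in each LNCaP library (points) of the 8 groups (horizontal axis). Bars are group means with the SD over 3 or 4 libraries, and CDK1 rises with either agent and most with both, CENPN is several times higher in the R1881 groups, and KIF18A overlaps between vehicle and R1881 at 72 h.

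Other genes were also followed by library at 72 h. UBE2C was at 8.92, 10.4, 11.3 and 10.5 CPM in vehicle, 19.0, 21.8, 24.9 and 21.9 with SNX631, 30.4, 32.8, 37.5 and 35.8 with R1881 and 43.5, 53.0, 51.6 and 50.3 with both. CDC20 was at 18.4, 21.4, 21.0 and 17.9 CPM in vehicle, 33.9, 36.5, 37.4 and 36.1 with SNX631, 54.0, 59.9, 62.6 and 61.2 with R1881 and 68.6, 78.0, 77.9 and 78.2 with both. UBE2C and CDC20 act together to direct ubiquitin to cyclin B and securin, and the 4 groups of each gene do not overlap. For AURKA the libraries held 13, 12.1, 12.3 and 10.9 CPM in vehicle, 19.2, 22.7, 21.6 and 20.9 with SNX631, 35.7, 33.1, 37.5 and 36.0 with R1881 and 46.2, 47.9, 47.6 and 48.6 with both. Its relative AURKB was at 6.01, 5.63, 5.40 and 4.61 CPM in vehicle, 11, 8.29, 9.56 and 8.71 with SNX631, 13.3, 15.1, 14.8 and 15.2 with R1881 and 19.4, 21.0, 23.9 and 21.5 with both. Securin (PTTG1) was at 13.2, 13.7, 11.1 and 12.1 CPM in vehicle, 20.4, 19.8, 21.6 and 17.6 with SNX631, 25.9, 25.7, 27.7 and 25.3 with R1881 and 38.7, 41.7, 37.0 and 39.2 with both. In both Aurora kinases and securin the order of groups was vehicle, SNX631, R1881 and both, without overlap. CDCA5, the protector of cohesin, was at 12.7, 12.2, 14 and 13.1 CPM in vehicle, 26.2, 28.7, 28.5 and 27.2 with SNX631, 40.3, 39.4, 44.3 and 42.6 with R1881 and 62.0, 62.2, 64.0 and 62.1 with both. The checkpoint kinase gene BUB1 was at 12.8, 12.7, 11.4 and 15 CPM in vehicle, 22.9, 25.7, 24.8 and 24.9 with SNX631, 37.0, 38.0, 37.0 and 31.4 with R1881 and 53.2, 54.7, 56.1 and 53.9 with both. Neither overlapped between neighbouring groups. CENPA was at 4.46, 4.50, 4.22 and 3.92 CPM in vehicle, 8.03, 6.92, 5.93 and 7.53 with SNX631, 7.67, 10.8, 11.5 and 12.5 with R1881 and 12.7, 14.5, 15 and 16.5 with both, and its SNX631 and R1881 ranges overlap. KIF11 was at 13.9, 16.6, 17.1 and 16.2 CPM in vehicle, 27.6, 29.8, 29.1 and 29.1 with SNX631, 41.6, 40.0, 44.1 and 40.4 with R1881 and 51.8, 60.2, 59.8 and 56.2 with both. PRC1 was at 16.2, 14.6, 16.5 and 14.7 CPM in vehicle, 30.4, 32.4, 29.6 and 29.5 with SNX631, 41.9, 41.0, 43.5 and 43.2 with R1881 and 55.8, 61.4, 58.2 and 57.0 with both. TPX2 was at 35.4, 41.0, 40.6 and 37.8 CPM in vehicle, 72.1, 75.7, 74.9 and 64.2 with SNX631, 99.0, 111, 112 and 111 with R1881 and 144, 164, 157 and 153 with both. In KIF11, PRC1 and TPX2 the groups stood in the same order and did not overlap.

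The genes at the ends of the other comparisons had these libraries at 24 h. SPC25 went from the vehicle values above to 7.05, 8.30 and 7.35 CPM with R1881. ECT2 went from 22.8, 24.4 and 25.8 CPM to 37.7, 46.1 and 42.9 CPM, and SKA3 from 2.27, 1.07 and 1.66 CPM to 13.1, 13.1 and 11.6 CPM. INCENP went from 16, 15.4 and 17.2 CPM to 35.6, 31.4 and 32.1 CPM. None of these 4 genes overlapped between vehicle and R1881. With Senexin B present, R1881 took CENPI from 2.90, 1.85 and 2.24 CPM to 15.4, 21.2 and 16.4 CPM and NCAPD2 from 65.8, 65.3 and 66.7 CPM to 105, 113 and 106 CPM, both without overlap. CDC25C was at 1.04, 1.09 and 1.7 CPM with Senexin B against 0.853, 1.57 and 1.38 CPM in vehicle, and KNL1 at 3.5, 2.52 and 3.31 CPM against 2.75, 3.14 and 3.33 CPM, and both overlap. Adding Senexin B to R1881 took MAD2L1 from 42.7, 46.1 and 39.5 CPM to 53.4, 62.7 and 50.6 CPM, without overlap, while the libraries of KIF14, at 12.2, 11.5 and 11.7 CPM and 8.76, 11 and 8.85 CPM, did not overlap in the other direction and gave no call.

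NUF2, of the NDC80 complex, was at 1.23, 2.28 and 2.58 CPM in vehicle, 3.20, 3.95 and 3.85 with Senexin B, 12.1, 17.9 and 15 with R1881 and 13.2, 15.4 and 13.4 with both. Its Senexin B libraries lay above vehicle, and its libraries with both overlapped those with R1881. KIF18A was at 2.09, 2.02 and 2.39 CPM with Senexin B, above vehicle, and at 2.40, 3.09 and 3.16 CPM with both, below R1881 alone. SMC2 was at 26.4, 27.9 and 28 CPM in vehicle, 27.1, 29.1 and 30 with Senexin B, 60.7, 63.0 and 63.1 with R1881 and 64.9, 72.9 and 70.4 with both, and for FOXM1 the groups with Senexin B held 25.2, 22.8 and 23.7 CPM without and 63.9, 71.6 and 63.9 CPM with R1881. At 72 h, KIF15 was at 5.32, 5.33, 5.15 and 5.22 CPM in vehicle, 15.3, 14, 12.8 and 11.6 with SNX631, 16.8, 19.7, 18.6 and 17.3 with R1881 and 23.6, 24.5, 28.9 and 23.7 with both, and ECT2 at 45.6, 45.3, 48.9 and 45.8 CPM in vehicle, 66.8, 71.7, 72.5 and 66.6 with SNX631, 74.9, 75, 77.9 and 75.9 with R1881 and 108, 122, 115 and 112 with both. In KIF15 and ECT2 the 4 groups do not overlap. KIF20A went from 8.67, 12.3, 10.5 and 10.5 CPM to 44.1, 47.1, 45.2 and 44.0 CPM with R1881, SKA3 from 5.23, 6.76, 6.50 and 5.22 CPM to 15.8, 15.9, 13.9 and 15 CPM, INCENP from 21.5, 25.8, 25.5 and 25 CPM to 47.9, 49.3, 54.5 and 56.1 CPM and NCAPD2 from 78.7, 81.7, 83.2 and 82.8 CPM to 143, 147, 146 and 145 CPM, with no overlap in any of the 4. With SNX631 present, R1881 took ANLN, which links the contractile ring to the membrane, from 34.3, 32.9, 32.5 and 33.1 CPM to 93.8, 99.1, 93.1 and 92.6 CPM and NCAPD2 from 113, 117, 124 and 110.3 CPM to 178, 196, 189.9 and 175 CPM. SMC4 was at 73.9, 79.5, 79.5 and 74.9 CPM in vehicle and 108, 112, 108 and 106 CPM with SNX631, and MAD2L1 at 54.1, 54.3, 50 and 49.5 CPM with R1881 and 89.6, 85.3, 84.6 and 80.9 CPM with both, and neither pair overlaps.

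Genes of the same pathway that are not on the list of 59 were grouped by what is known of their cell-cycle expression. Of 45 other periodic mitotic genes, 44 were called higher with R1881 at 24 h and 45 at 72 h, with medians of 2.10 and 1.38, and none was lower. DEPDC1 was the highest in both, at 3.78 and 2.15. SNX631 alone raised 33 of them and Senexin B alone 12. The E2F-driven genes of DNA replication were also mostly called with R1881 and SNX631, with 22 and 21 of 22 higher with R1881, 6 with Senexin B and 18 with SNX631, and RRM2, the ribonucleotide reductase subunit, at 3.98 with R1881 at 24 h. Over all genes tested the shares called higher were 9.81% and 9.7% with R1881 at 24 h and 72 h, 2.02% with Senexin B and 2.82% with SNX631.

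Another list held 15 genes of the anaphase-promoting complex, of which 14 encode core subunits and FZR1 encodes an activator that acts after CDC20. None was called by edgeR in any of the 8 comparisons with R1881 or an inhibitor. With R1881 at 24 h their median was 0.082 and their range -0.29 (CDC26) to 0.44 (CDC23). At an unadjusted p under 0.05, 6 were higher and 2 lower, and 5 of the 6 also passed the adjusted p limit. FZR1, named after its value was seen, was at -0.13 ± 0.06. A list of 18 genes with little periodic expression held 9 cohesin genes and regulators, 3 centromere genes, 4 genes of the MIS12 complex of the kinetochore and the checkpoint genes BUB3 and MAD1L1. Of these, 2 were higher with R1881 at 24 h and 2 at 72 h, led by DSN1 (1.43 and 1.08) of the MIS12 complex. Of 12 MuvB and DREAM subunits, 3 were higher at 24 h and 1 at 72 h, led by MYBL2 (2.90 and 2.00), which is periodic itself and is also one of the 45 above. Over all genes tested, 9.81% were called higher with R1881 at 24 h and 9.7% at 72 h. The 2 of 18 are near those shares, and 15 genes are too few to set a count of 0 apart from them. The difference between these lists and the 59 was not tested, since all were chosen with earlier results known.

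KIF15 had fractional counts in 23 of 28 libraries, BUB1B in 21, CENPA in 18 and PRC1 in 15, and 36 of the 59 were whole in every library. Exons of 22 genes were overlapped by a gene on the opposite strand and of 3 by a gene on the same strand in GENCODE 29, namely BUB1B, CENPA and PRC1.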

How the data were processed

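The data are 28 RNA-seq libraries of LNCaP cells in 8 groups, which were taken from the labels. Per the labels' protocols, RNA was extracted with RNeasy columns and libraries were made with a directional NEBNext Ultra II kit. The submitters' processing notes name FastQC, cutadapt 2.8, STAR 2.7.2b, featureCounts and Subread 2.0.3, and the builds GRCh38.p13 and GRCm39. The annotation release and the use of strand in counting are not given in the sources used here. The authors deposited estimated counts per gene (expected counts, 16.9% of values above 0 not whole) with no normalization. The table also holds 2 added entries that are not human genes, with 0 counts, and no column was without a sample.

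Counts were rounded and tested with edgeR 4.0.16 (R 4.3.3) by its quasi-likelihood test after TMM scaling and filterByExpr (minimum count 10, minimum total 15), with Benjamini-Hochberg adjustment over 15948 genes at 24 h, 16074 at 72 h and 16672 in the fit of all 28 libraries, which gave only the difference between experiments. Each experiment was fitted alone with 4 group means. A call needed a fold change above 1.5 at an adjusted p below 0.01, as in the published methods. Pairs of libraries of a group differed by a chi-square per degree of freedom of 1.20 to 2.48, where counting noise alone gives 1. None was therefore taken as a copy of another, and all were counted as separate. This check cannot tell separate cultures from repeated libraries of 1 culture. The common spread between replicates beyond counting noise (edgeR's biological coefficient of variation) was 2.72% at 24 h and 2.38% at 72 h. Alternatives were DESeq2 1.42.0, other scalings, no filter, a replicate block, other thresholds, 1 fit of all libraries and leaving out each library. The script was tested on simulated data. The 59 genes and all other lists were chosen with earlier results of these data known. Values by library were given for a fixed core of genes and for the 2 highest and 2 lowest of each comparison. Genes of other lists were named as the highest or lowest of their list, apart from those said to be named after their values were seen. Total counts were 9846595 to 33809419 per library. Promoter sequences are from RefSeq (GRCh38.p14) and gene positions from GENCODE 29 (GRCh38).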

Additional observations from a re-analysis of the deposited data

Results flagged for a closer look

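In 9 of 156 sets of 4 libraries at 72 h, 1 library lay far from the other 3 (a gap over the range above Dixon's critical value for 4 samples). Chance flags about 1 in 20 such sets. ECT2 was at 48.9 CPM in replicate 3 of vehicle, where the other 3 libraries held 45.3 to 45.8 CPM. NDC80 was at 23.7 CPM in replicate 4 of SNX631, where the other 3 libraries held 27.0 to 27.3 CPM. BUB1 was at 31.4 CPM in replicate 4 of R1881, where the other 3 libraries held 37.0 to 38.0 CPM. TPX2 was at 99.0 CPM in replicate 1 of R1881, where the other 3 libraries held 111 to 112 CPM. FOXM1 was at 86.5 CPM in replicate 1 of R1881, where the other 3 libraries held 97.3 to 99.3 CPM. NCAPG was at 50.6 CPM in replicate 1 of R1881, where the other 3 libraries held 56.6 to 57.7 CPM. CDC20 was at 68.6 CPM in replicate 1 of R1881 with SNX631, where the other 3 libraries held 77.9 to 78.2 CPM. CDCA5 was at 64.0 CPM in replicate 3 of R1881 with SNX631, where the other 3 libraries held 62.0 to 62.2 CPM. KIF15 was at 28.9 CPM in replicate 3 of R1881 with SNX631, where the other 3 libraries held 23.6 to 24.5 CPM. Replicate 1 of R1881 was the low library for 3 of these genes.

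The effect of Senexin B differed with and without R1881 at 24 h for 3 genes, by the interaction term in edgeR, with log2 values of -0.66 for KIFC1, -0.66 for TOP2A and -0.78 for NCAPG. NCAPG lost this call in 6 of 12 fits that left out 1 library. In 5 of them the count fell from 3 to 1 while TOP2A kept its call. KIFC1, which was not refitted singly, was thus not called there either.

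The effect of SNX631 differed with and without R1881 at 72 h for 11 genes by the same test, with log2 values of -0.68 for CDC25C, -0.59 for MKI67, -0.74 for NDC80, -0.84 for SKA1, -0.63 for KIF2C, -0.88 for KIF15, -0.63 for KIFC1, -0.67 for KIF20A, -0.72 for CEP55, -0.66 for CDCA8 and -0.68 for NCAPG. MKI67 lost this call in 12 of 22 alternatives and CDC25C in 5. KIF2C, KIFC1, CEP55 and CDCA8 were not refitted singly. Without replicate 2 of SNX631 the count of 11 fell to 8, and of the genes refitted singly only MKI67 was lost there. Some of those not refitted were thus lost as well.

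The R1881 effect at 72 h (1 nM) was smaller than at 24 h (0.1 nM) for 43 genes, by a test of the difference in edgeR over 28 libraries, given here as log2 differences. Among the kinases and cyclins it was -0.72 for CCNB2, -0.91 for CCNA2, -0.65 for CDK1 and -0.61 for PLK1. For the proliferation marker MKI67 it was -1.13. Among the checkpoint genes it was -0.79 for BUB1, -0.98 for BUB1B, -1.41 for TTK and -0.93 for MAD2L1. Among the activator and ubiquitin-conjugating enzyme of the anaphase-promoting complex it was -0.95 for CDC20 and -0.83 for UBE2C. Among the centromere proteins it was -0.74 for CENPE, -0.60 for CENPF, -1.45 for CENPI, -1.28 for CENPK and -0.80 for CENPM. Among the outer kinetochore genes it was -1.36 for NDC80, -1.10 for NUF2, -0.84 for SPC24, -1.42 for SPC25, -0.89 for KNL1 and -1.60 for SKA3. Among the kinesins it was -0.68 for KIF11, -0.99 for KIF2C, -0.94 for KIF4A, -1.08 for KIF14, -1.01 for KIF15 and -1.11 for KIFC1. Among the spindle assembly factors it was -0.80 for TPX2 and -0.89 for HMMR. Among the midzone and cytokinesis genes it was -0.68 for KIF20A, -0.91 for KIF23, -1.19 for ANLN and -1.10 for CEP55. Among the passenger complex genes it was -1.13 for AURKB, -0.85 for BIRC5 and -0.59 for CDCA8. Among the cohesion genes it was -1.12 for CDCA5, -1.59 for SGO1 and -1.05 for ESPL1. Among the condensin and topoisomerase genes it was -1.36 for TOP2A, -1.68 for NCAPG and -1.03 for NCAPH. Without vehicle replicate 3 of the 24 h experiment the count of 43 fell to 34. KIF20A, SPC25, UBE2C and PLK1 were the genes that lost their calls there among the 38 refitted singly. Time, dose and experiment cannot be told apart in this difference.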

How the results depend on the processing

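Labels give the groups of each experiment the same replicate numbers. Deviations of same-numbered libraries from their group means had correlations of -0.014 to 0.092 at 24 h and -0.050 to 0.077 at 72 h, none over 0.1, so the numbers were not taken to pair the libraries. With the replicate number as a block, the counts of the 59 genes called were 59, 58, 58 and 58 for R1881 (24 h, 72 h, with Senexin B, with SNX631), 53 for SNX631 alone and 9 for Senexin B alone, 1 and 14 for these inhibitors with R1881 at 24 h and 72 h, 3 and 12 for the interactions and 43 for the difference between experiments. Only Senexin B alone (10 without the block) and the interaction at 72 h (11) moved.

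No count of genes called in the 4 comparisons of R1881 with its control, or for SNX631 alone, moved by over 1.5 times under any alternative. With library totals in place of TMM scaling the median of all genes fell to -0.12 in both 72 h comparisons of R1881, and the medians over the 59 were 2.31 and 1.38 for R1881 at 24 h and 72 h, 2.08 with Senexin B and 0.95 with SNX631. SNX631 with R1881 then gave 7 calls, all higher. Testing against a fold change of 1.5 at an adjusted p under 0.05 left 1 call for Senexin B, 0 for Senexin B with R1881, 1 for SNX631 with R1881, 0 and 0 for the interactions at 24 h and 72 h, and 13 for the difference between experiments. An adjusted p under 0.05 with no fold limit gave 27 for Senexin B, 14 higher and 3 lower for Senexin B with R1881, 57 higher and 1 lower for SNX631 with R1881, and 8 and 48 for the interactions. The shares of all genes at these other limits are not given, so these counts cannot be set against a general share. At an adjusted p under 0.01 with no fold limit, 13.5% of all genes tested were already higher with Senexin B. With R1881 present the shares were 12.7% for Senexin B and 17.8% for SNX631. DESeq2 gave the counts of edgeR except for the interactions, with 2 at 24 h, where 2 genes had no adjusted p, and 10 at 72 h. The test against a fold change of 1.5 and the limit of an adjusted p under 0.05 differ in the threshold by construction. For the others, DESeq2 among them, the thresholds were kept and the cause was not tested.

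Leaving out 1 library at a time gave 1 to 4 calls for the interaction at 24 h, 8 to 17 at 72 h, 10 to 19 for SNX631 with R1881 and 34 to 45 for the difference between experiments. The count of 1 came without replicate 1 or 3 of vehicle, replicate 2 of Senexin B, or replicate 1 or 3 of R1881 with Senexin B, and the count of 17 without replicate 2 of R1881 with SNX631. The count of 34 came without replicate 3 of the 24 h vehicle. With the thresholds kept, NUF2 with Senexin B lost its call in 9 of 18 alternatives, MKI67 in the interaction at 72 h in 12 of 22 and NCAPG in the interaction at 24 h in 6 of 18.

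Single genes were refitted under each alternative for the 38 named by the rule, not for the other 21. Among the 38, signs changed only in comparisons where the gene was not called. CENPN with Senexin B alone was -0.031 with library totals, -0.0053 without the filter and -0.013 with the block. With library totals, Senexin B with R1881 gave -0.017 for CCNB1, -0.019 for AURKA, -0.0055 for KIF11 and -0.0092 for MKI67, and the interaction of ECT2 at 72 h was -0.0059. DESeq2 gave -0.0079 for the interaction of ECT2 at 24 h. Without 1 library at a time, signs changed for these genes, given by their lowest and highest value. For Senexin B alone the ranges were CENPN -0.053 to 0.11, CDC25C -0.31 to 0.080, KNL1 -0.12 to 0.11 and KIF14 -0.063 to 0.34. For Senexin B with R1881 the ranges were CCNB1 -0.046 to 0.057, PLK1 -0.083 to 0.061, AURKA -0.039 to 0.070, NDC80 -0.027 to 0.16, KIF11 -0.040 to 0.10, TOP2A -0.0020 to 0.14, MKI67 -0.076 to 0.080, SPC25 -0.091 to 0.064, CDC25C -0.27 to 0.025, NUF2 -0.25 to 0.024 and INCENP -0.048 to 0.045. For the interaction at 24 h the ranges were AURKB -0.52 to 0.10, TPX2 -0.11 to 0.017, PRC1 -0.10 to 0.025, FOXM1 -0.030 to 0.065, ECT2 -0.084 to 0.11, CENPI -0.26 to 0.15, CDC25C -0.22 to 0.18 and MAD2L1 -0.18 to 0.020. For the interaction at 72 h the ranges were ECT2 -0.030 to 0.024. For the difference of the R1881 effects the ranges were CENPA -0.047 to 0.16 and ECT2 -0.13 to 0.0051.

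The lowest counts of any of the 59 genes were in the vehicle and Senexin B libraries at 24 h, at 8 to 16, and those libraries held 10219140 to 33809419 counts in total.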
